A study of Mus musculus with 15 samples.

Results

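Ifi202b, Ifi203, Ifi204 and Aim2 are 4 interferon-inducible DNA sensor genes that lie in 1 cluster on mouse chromosome 1. They were followed here in the heart apex of B6C3F1, C3H and C57Bl/6 mice. They were chosen by name, and every probe set of a whole-genome Affymetrix mouse array annotated to at least 1 of them was read on all 15 arrays. This gave 4 of the 18190 genes measured and 9 probe sets: each gene had 1 probe set of its own, and 5 further probe sets also carried symbols of other genes. Because the genes were picked with their strain levels known, those levels are given as a description, without a test.

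The mice were untreated males of 9 to 10 weeks, 5 per strain, each with an abdominal radiotelemetry transmitter implanted under anaesthesia before collection. B6C3F1 (B6C3F1/J) is the first-generation cross of the inbred strains C3H (C3H/HeJ) with C57Bl/6 (C57BL/6J), so that each B6C3F1 mouse carries 1 copy of the cluster from each parent strain. C3H/HeJ mice are known to carry a mutated Tlr4, the receptor for bacterial endotoxin, and no group without the implant was measured. Apex tissue (10 to 18 mg) gave 50 ng of total RNA for a two-cycle amplification, and the labels give a separate mouse for each array.

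The Ifi200 family, also called the PYHIN or HIN-200 family, consists of proteins that bind double-stranded DNA through HIN domains. Most members also carry a pyrin domain, through which Aim2 recruits the adaptor Pycard (ASC) and caspase-1 to form an inflammasome that matures interleukin-1 beta and interleukin-18. The protein of Ifi202b has HIN domains and no pyrin domain, and is known to bind DNA and to restrain Aim2. Interferons induce several members through promoter elements read by STAT and IRF factors, and the sensors are best known from macrophages and other immune cells, which a heart also holds.

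Signals are given as log2(signal + 16), where signal is the array's linear brightness. Adding 16 damps the noise of dim probe sets and understates the change of low ones. A probe set was called dim when its mean over all arrays was below 5.74, the 40th percentile of all probe sets. Of the 4 genes, Ifi202b, Ifi203 and Ifi204 were above that limit and Aim2 was below it.

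Ifi202b encodes p202, the family member without a pyrin domain, and it was bright in C3H hearts and dim in C57Bl/6 hearts. Its own probe set, of a design that may match more than 1 transcript, read 5.10, 7.50, 7.66, 5.55 and 7.79 in B6C3F1 replicates 1 to 5. It read 8.30, 8.54, 8.49, 7.60 and 8.81 in C3H hearts, and 5.58, 5.23, 4.32, 5.12 and 4.42 in C57Bl/6 hearts. All 5 C3H values lay above all 5 C57Bl/6 values, and all 5 C57Bl/6 values were under the dim limit. The C3H minus C57Bl/6 difference was 3.41 ± 0.32 (SE, n = 5 each). On the linear scale the mean signal was 121.2 in B6C3F1, 321.4 in C3H and 16.3 in C57Bl/6. C57BL/6J is known to carry a deletion at the 5′ end of Ifi202b, and no DNA was examined here.

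By the genes' own probe sets, Ifi202b alone of the 4 had C3H arrays that did not overlap the C57Bl/6 arrays, and they lay above. Over all 18190 genes, 3.72% had C3H arrays wholly above the C57Bl/6 arrays, and 8.39% had them apart in either direction. Since the levels chose the gene, nothing is read from those shares.

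**Figure D1:**
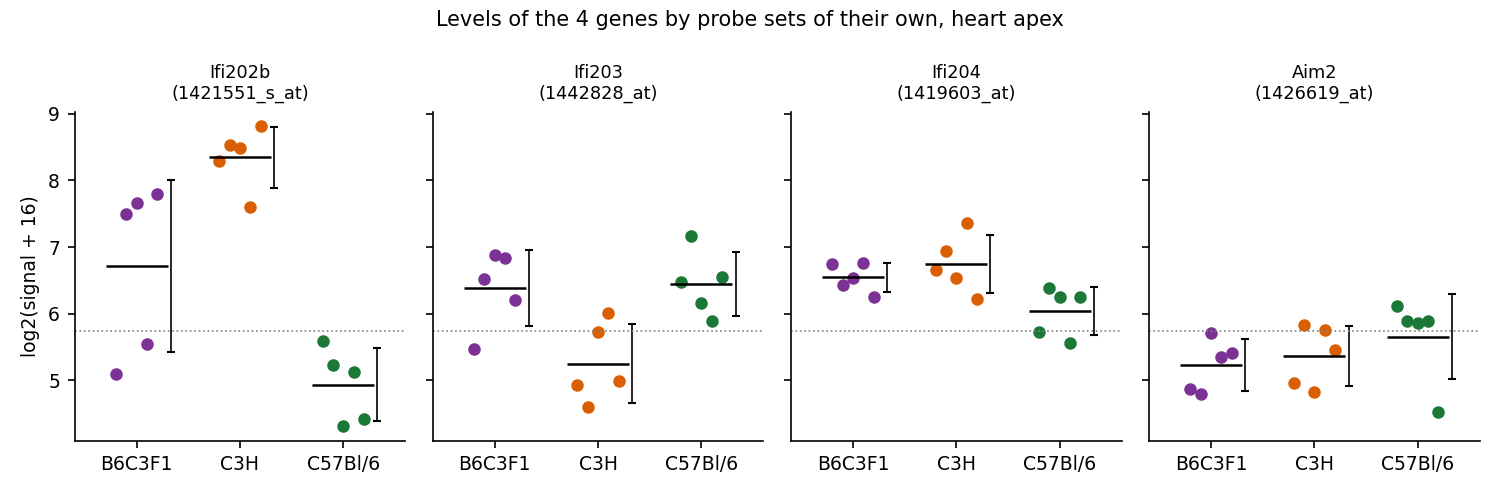
Levels of Ifi202b, Ifi203, Ifi204 and Aim2 by their own probe sets, as log2(signal + 16), in B6C3F1, C3H and C57Bl/6 hearts. Points are single arrays (5 a strain), horizontal lines are means, bars are ± SD and the dotted line is the dim limit of 5.74. C3H lies wholly above C57Bl/6 for Ifi202b alone, and the B6C3F1 arrays of Ifi202b fall into a low pair and 3 high arrays.

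The 250 bases before the start of Ifi202b are shown because this gene carries the widest strain gap of the 4. They are from RefSeq's GRCm38.p6 annotation, at chr1:173982845-173983094 on the minus strand, and are those of C57BL/6J, the strain of the reference genome. That is the strain given above as carrying a deletion at the 5′ end of this gene. The letters before the C3H copy were not read and may differ. Capitals mark the single match to TTCNNNGAA, the gamma-activated site that STAT dimers read.
Ifi202b: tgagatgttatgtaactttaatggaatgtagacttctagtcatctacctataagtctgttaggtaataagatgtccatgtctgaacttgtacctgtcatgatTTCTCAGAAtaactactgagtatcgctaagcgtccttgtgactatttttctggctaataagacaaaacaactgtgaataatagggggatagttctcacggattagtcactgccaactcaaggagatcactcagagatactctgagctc
That motif was found in 7.02% of 32851 promoter windows of this length, on either strand. A match is a description of these letters and not evidence of a bound site.

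In B6C3F1 hearts Ifi202b did not take 1 common level. Replicates 1 and 4 (5.10 and 5.55) lay within the C57Bl/6 range of 4.32 to 5.58, while replicates 3 and 5 (7.66 and 7.79) reached into the C3H range of 7.60 to 8.81 and replicate 2 (7.50) lay just below it. In linear signal the B6C3F1 mice read 18.3, 164.5, 186.3, 30.9 and 206.0. The log2 mean of B6C3F1 was 6.72 ± 1.29 (SD, n = 5), beside a midparent of 6.64, but no B6C3F1 mouse lay between 5.55 and 7.50. A midparent is here the mean of the parent strains' log2 means. On the linear scale the mean signal was 121.2 in B6C3F1, 321.4 in C3H and 16.34 in C57Bl/6. B6C3F1 thus lay below the midpoint of the parents on that scale. The B6C3F1 SD of 1.29 for Ifi202b exceeded that of 99.87% of the 13107 genes above the dim limit. The median B6C3F1 SD of those genes was 0.23. The SD of Ifi202b was 0.46 in C3H and 0.55 in C57Bl/6.

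For Ifi202b, B6C3F1 minus C57Bl/6 was 1.79 ± 0.63 and B6C3F1 minus C3H was -1.63 ± 0.61 (SE). In both comparisons the arrays overlapped. By their own probe sets, none of the 4 genes had B6C3F1 arrays apart from those of C57Bl/6 (0 of 4, against 4.65% of all genes, in either direction) or of C3H (0 of 4, against 4.89%).

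The second probe set that carries Ifi202b is shared with a LOC entry of the annotation, so that its signal cannot be given to Ifi202b alone. It read 4.72, 8.57, 8.18, 4.09 and 7.88 in B6C3F1 hearts. In C3H hearts it read 8.45, 9.00, 8.44, 7.31 and 9.82, and in C57Bl/6 hearts 4.23, 5.53, 5.44, 5.67 and 4.24. B6C3F1 replicates 1 and 4 were again the low pair, and the C3H arrays again lay wholly above the C57Bl/6 arrays. The C3H minus C57Bl/6 difference was 3.58 ± 0.52 (SE), and the SD of B6C3F1 was 2.11, against 0.92 in C3H and 0.72 in C57Bl/6.

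Ifi203 encodes a pyrin and HIN protein of the same cluster, and its own probe set and 1 of its 3 shared probe sets ran in opposite directions. The own probe set read 5.48, 6.52, 6.89, 6.83 and 6.21 in B6C3F1 hearts. It read 4.93, 4.60, 5.72, 6.01 and 5.00 in C3H hearts, of which 4 of 5 were under the dim limit, and 6.47, 7.17, 6.16, 5.89 and 6.55 in C57Bl/6 hearts. C3H had the lowest mean of the 3 strains here, although its highest array passed the lowest C57Bl/6 array. The C3H minus C57Bl/6 difference was -1.20 ± 0.34 (SE). B6C3F1 stood 1.13 ± 0.37 above C3H and differed from C57Bl/6 by -0.06 ± 0.34, and its distance from the midparent was 0.54 ± 0.31.

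A second probe set, annotated to Ifi203, the Ifi203-ps pseudogene and 2 LOC entries, ran the other way. It read 8.95, 9.30, 9.13, 8.93 and 9.67 in B6C3F1 hearts. It read 9.63, 9.76, 9.59, 9.06 and 9.60 in C3H hearts, and 6.73, 8.03, 7.36, 6.84 and 7.80 in C57Bl/6 hearts. C57Bl/6 was low on every array, and both other strains lay wholly above it. The difference from C57Bl/6 was 1.84 ± 0.29 for B6C3F1 and 2.18 ± 0.28 for C3H (SE), and B6C3F1 overlapped C3H. B6C3F1 stood 0.75 ± 0.20 above the log2 midparent on this probe set, nearer to C3H than to C57Bl/6. In linear signal the means were 580.9 in B6C3F1, 732.7 in C3H and 158.0 in C57Bl/6, so B6C3F1 was nearer to C3H there too.

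The remaining probe sets that list Ifi203 showed no separation of the strains. The third, with the pseudogene and 1 LOC entry, averaged 9.99 ± 0.71 in B6C3F1, 10.25 ± 0.58 in C3H and 9.95 ± 0.28 in C57Bl/6 (SD). The fourth, with the same symbols, averaged 5.87 ± 0.96, 6.04 ± 0.63 and 5.67 ± 0.85 in B6C3F1, C3H and C57Bl/6. C3H minus C57Bl/6 was 0.29 ± 0.29 on the third and 0.37 ± 0.48 on the fourth (SE). The direction for Ifi203 thus depends on the probe set, and the probe sequences were not used here, so that the transcripts behind each cannot be told apart.

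**Figure D2:**
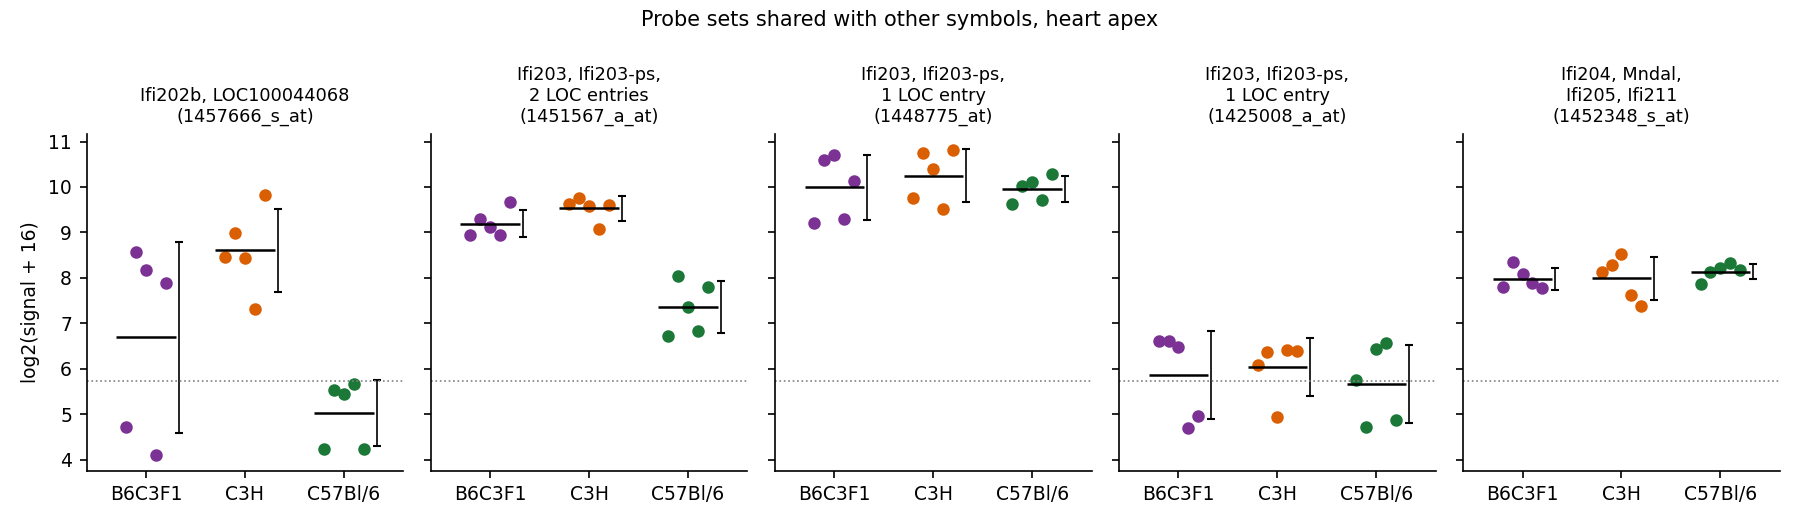
Levels of the 5 probe sets annotated to 1 of the 4 genes together with other symbols, as log2(signal + 16), in B6C3F1, C3H and C57Bl/6 hearts. Points are arrays, lines are means, bars are ± SD (n = 5) and the dotted line is the dim limit of 5.74. C3H lies wholly above C57Bl/6 on the set shared by Ifi202b and on the Ifi203 set with 2 LOC entries. B6C3F1 lies wholly above C57Bl/6 on that Ifi203 set alone, and the strains overlap on the other probe sets.

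Ifi204 encodes p204, a mouse relative of the human sensor IFI16. On the own probe set of Ifi204, C57Bl/6 had the lowest mean of the 3 strains. That probe set read 6.75, 6.43, 6.54, 6.77 and 6.24 in B6C3F1 hearts. It read 6.65, 6.94, 6.54, 7.37 and 6.22 in C3H hearts and 5.73, 6.39, 6.25, 5.57 and 6.26 in C57Bl/6 hearts. Of the C57Bl/6 values, 2 of 5 were under the dim limit. The lowest C3H array fell within the C57Bl/6 range, so the strains overlapped. C3H minus C57Bl/6 was 0.70 ± 0.25, B6C3F1 minus C57Bl/6 was 0.51 ± 0.19 and B6C3F1 minus C3H was -0.20 ± 0.22 (SE). A probe set shared by Ifi204, Mndal, Ifi205 and Ifi211 averaged 7.97 ± 0.24 in B6C3F1, 7.99 ± 0.47 in C3H and 8.14 ± 0.17 in C57Bl/6 (SD), with C3H minus C57Bl/6 at -0.15 ± 0.23 (SE).

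Aim2, the inflammasome sensor, had a mean under the dim limit in all 3 strains and was therefore not among the genes tested. Its probe set read 4.87, 4.80, 5.71, 5.36 and 5.42 in B6C3F1 hearts, all under the dim limit. It read 4.97, 5.83, 4.83, 5.76 and 5.45 in C3H hearts, of which 3 of 5 were under the limit. In C57Bl/6 hearts it read 6.12, 5.89, 5.85, 5.90 and 4.52, with only replicate 5 under the limit. The strains overlapped throughout, and the C57Bl/6 range held the whole C3H range and the whole B6C3F1 range. C3H minus C57Bl/6 was -0.29 ± 0.35 and B6C3F1 minus C57Bl/6 was -0.43 ± 0.33 (SE). The sign of the C3H minus C57Bl/6 difference turned to 0.04 with the Gapdh 3′ over 5′ ratio as a covariate. It was -0.72 with poly-A controls as a covariate and -0.57 without C57Bl/6 replicate 5, the low array.

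The cluster holds 13 protein-coding family genes in the RefSeq gene table, running from Aim2 to Ifi205, and 8 of them had a probe set of their own. Besides the 4 genes, these were Ifi207, Ifi209, Ifi213 and Mndal, which are less studied pyrin and HIN family genes. All 4 were tested with limma across the 13107 genes above the dim limit, with Benjamini-Hochberg adjustment. Between the parent strains 2 of these 4 fell in C3H, where 8.4% of the genes tested fell and 7.26% rose. Both also had C3H arrays wholly below the C57Bl/6 arrays, as did 4.67% of all genes measured.

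Ifi209 averaged 6.72 ± 0.32 in B6C3F1, 5.44 ± 0.66 in C3H and 7.31 ± 0.30 in C57Bl/6 (SD). It read 6.53, 6.75, 6.36, 7.20 and 6.76 in B6C3F1 hearts, 5.89, 4.64, 5.13, 5.25 and 6.30 in C3H hearts and 7.21, 7.62, 7.57, 6.87 and 7.30 in C57Bl/6 hearts. C3H lay wholly below C57Bl/6, by a difference of -1.87 ± 0.30 (limma adjusted p = 0.000147). B6C3F1 minus C3H was 1.28 ± 0.30 (limma adjusted p = 0.0127), a call lost with poly-A controls as a covariate (adjusted p = 0.0807) or with the mean of its 2 probe sets (0.0778). B6C3F1 minus C57Bl/6 did not pass (-0.59, adjusted p = 0.268).

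Ifi213 averaged 5.86 ± 0.57 in B6C3F1, 4.91 ± 0.63 in C3H and 6.88 ± 0.28 in C57Bl/6 (SD), and C3H again lay wholly below C57Bl/6. The C3H minus C57Bl/6 difference was -1.97 ± 0.36 (limma adjusted p = 0.000631), and the C3H mean was itself under the dim limit. Neither B6C3F1 contrast passed for Ifi213 (adjusted p = 0.118 against C57Bl/6 and 0.138 against C3H). The dim second probe set of Ifi209 averaged 5.59 in B6C3F1, 5.10 in C3H and 6.10 in C57Bl/6, and that of Ifi213 gave -0.75 for C3H minus C57Bl/6. Ifi207 (-0.43, adjusted p = 0.518) and Mndal (-0.02, adjusted p = 0.969) did not pass, and the second Mndal probe set gave -0.08.

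Neighbouring family genes of the cluster thus differed between the parents in opposite directions. Ifi202b was higher in C3H than in C57Bl/6, Ifi209 and Ifi213 were lower, and Mndal showed a difference near 0. In bulk tissue such as this, fewer cells that express a gene and less RNA per cell cannot be told apart.

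Beyond the cluster, the 5 nearest measured genes on each side were Apcs, Olfr16, Fcer1a, Ackr1 and Cadm3 before it and Mptx1, Fmn2, Rgs7, Fh1 and Kmo after it. Of these 10, 5 were above the dim limit. Fmn2, a formin that nucleates actin, fell in C3H by 1.33 ± 0.31 (limma adjusted p = 0.00507), although its dim other probe sets read 0.42 and 0.61. Fh1, the fumarate hydratase of the citric acid cycle, fell by 0.22 ± 0.07 (limma adjusted p = 0.0343). That call was lost under median centring (adjusted p = 0.351) and without any 1 of C3H replicates 1 to 3 or C57Bl/6 replicates 1, 4 and 5 (0.0567 to 0.0861). It was also lost with poly-A controls (0.0608) or the Gapdh ratio (0.0911) as a covariate and with the replicate number as a block (0.0702). The same held without a dim filter (0.0941) and without an intensity trend (0.0584). Ackr1, Cadm3 and Rgs7 did not pass (adjusted p = 0.179, 0.721 and 0.810).

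**Figure D3:**
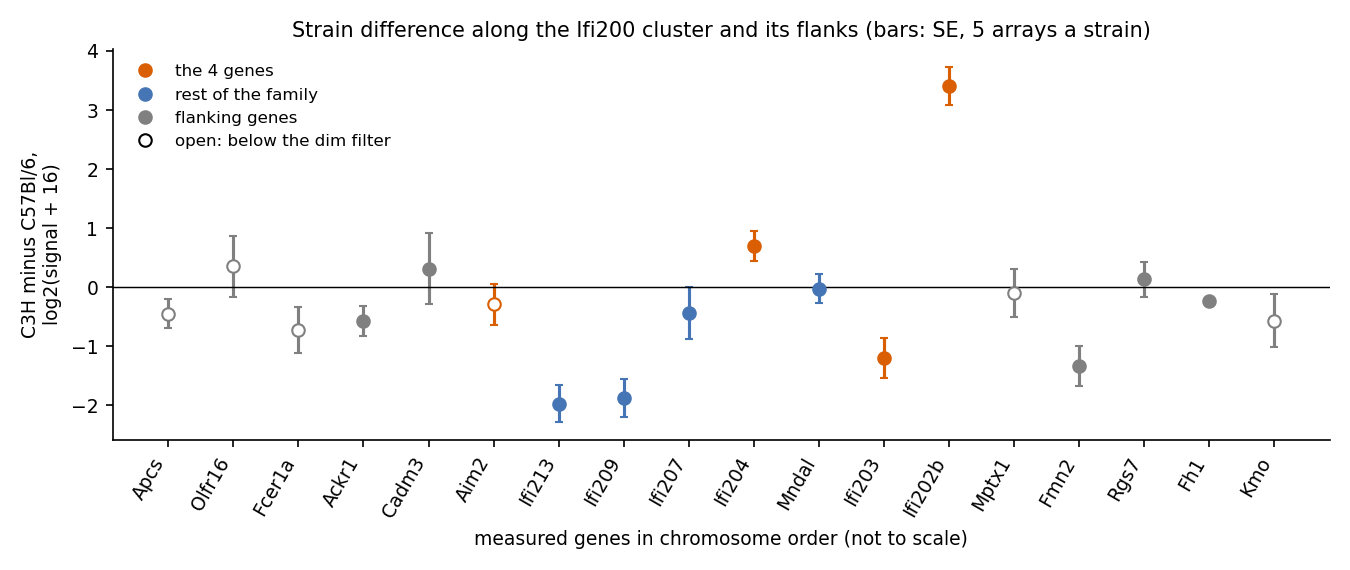
C3H minus C57Bl/6 differences in log2(signal + 16) along the Ifi200 cluster and its measured neighbours in chromosome order, not to scale. Points are differences of means, bars are ± SE (n = 5 arrays each) and open points are dim genes. Ifi202b stands at 3.41, Ifi209 and Ifi213 at -1.87 and -1.97, and Mndal near 0.

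Promoter letters of the family were compared because its genes are known interferon targets. RefSeq windows of 250 bases before the start were found for 12 of the 13 family genes, and for Ifi202b, Ifi203 and Aim2 among the 4; Ifi204 was not matched. The interferon-stimulated response element GAAANNGAAA, searched on both strands, occurred in 9 of the 12 genes, beside 2.98% of the 32851 windows. A gene can have more than 1 window, so the count of genes and the share of windows are unlike measures. The 10 matches, read with 10 bases on each side, gave 8 different sequences, so these genes are not independent. Of the 4 genes, Ifi203 held a match 35 bases before its second annotated start, while no match was present in the windows of Ifi202b and Aim2. Matches with 10 bases on each side are shown in capitals below, to set the Ifi203 match beside those of other family genes. Ifi205 had no probe set of its own and was not tested.
Ifi203 (chr1:173942508-173942537, minus strand): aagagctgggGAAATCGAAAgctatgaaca
Mndal (chr1:173880204-173880233, minus strand): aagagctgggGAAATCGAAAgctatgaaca
Ifi213 (chr1:173599326-173599355, minus strand): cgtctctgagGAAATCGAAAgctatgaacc
Ifi207 (chr1:173741831-173741860, minus strand): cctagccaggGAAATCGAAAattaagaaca
Ifi205 (chr1:174031870-174031899, minus strand): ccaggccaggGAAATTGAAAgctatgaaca
The Ifi203 and Mndal windows read the same 30 letters. The element is present in Ifi213, which was lower in C3H, and in Mndal, which did not pass, while no match was present in the window of Ifi209, which was also lower in C3H. TTCNNNGAA was found in 1 of the 12 genes, Ifi202b, and its window is printed above.

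Mouse by mouse, the B6C3F1 pair that was low on Ifi202b was also low on some other family probe sets, a pattern picked out after the values were seen and given as a description. On the third set listed for Ifi203, the B6C3F1 mice read 9.20, 10.60, 10.71, 9.30 and 10.14, with replicates 1 and 4 lowest. On the Mndal probe set used above they read 9.75, 11.13, 10.90, 10.17 and 10.77, with the same mice lowest. Of the 15 family probe sets that do not list Ifi202b, replicates 1 and 4 were the 2 lowest B6C3F1 arrays on 4: the second set and the third set listed for Ifi203, and both Mndal sets. C57Bl/6 replicates 1 and 4 were also the 2 lowest of their strain on each of those 4 sets. Over all 17 family probe sets, arrays 1 and 4 were the lowest pair on 6 in B6C3F1, 2 in C3H and 8 in C57Bl/6. The 6 in B6C3F1 include both Ifi202b sets, from which the pair was picked, so nothing is read from that count. The shares over 26998 of the 45096 probe sets of the series were 10.2%, 10.4% and 12.4%. The family's probe sets can share transcripts, so they are not independent.

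The drop at those mice was not shared by every member. On the own probe set of Ifi204, replicates 1 and 4 were the highest B6C3F1 arrays (6.75 and 6.77), and on that of Ifi203 replicate 4 read 6.83 while replicate 1 read 5.48. Irf7, the interferon-induced regulator of interferon genes, read 8.06, 7.36, 8.24, 7.78 and 7.63 in B6C3F1 replicates 1 to 5. Replicate 1 was thus among the higher arrays for Irf7. Another interferon-induced gene, Ifit3, read 8.46, 8.88, 9.00, 8.27 and 8.85 in the same mice, with replicates 1 and 4 lowest. Interferon-induced genes thus did not all order these mice alike, and the part of interferon in the Ifi202b split was not tested. The summed signal of 26 leukocyte marker genes in the same mice was 24530, 27700, 26370, 25150 and 25170, so that replicates 1 and 4 were lowest by a small margin. The part of leukocyte content in the Ifi202b split was not tested.

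In C3H hearts replicate 4 was the lowest array on both Ifi202b sets (7.60 and 7.31), and it also had the brightest poly-A control RNAs of the 15 arrays (mean log2 10.34). Replicate numbers do not link mice of different strains.

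**Figure D4:**
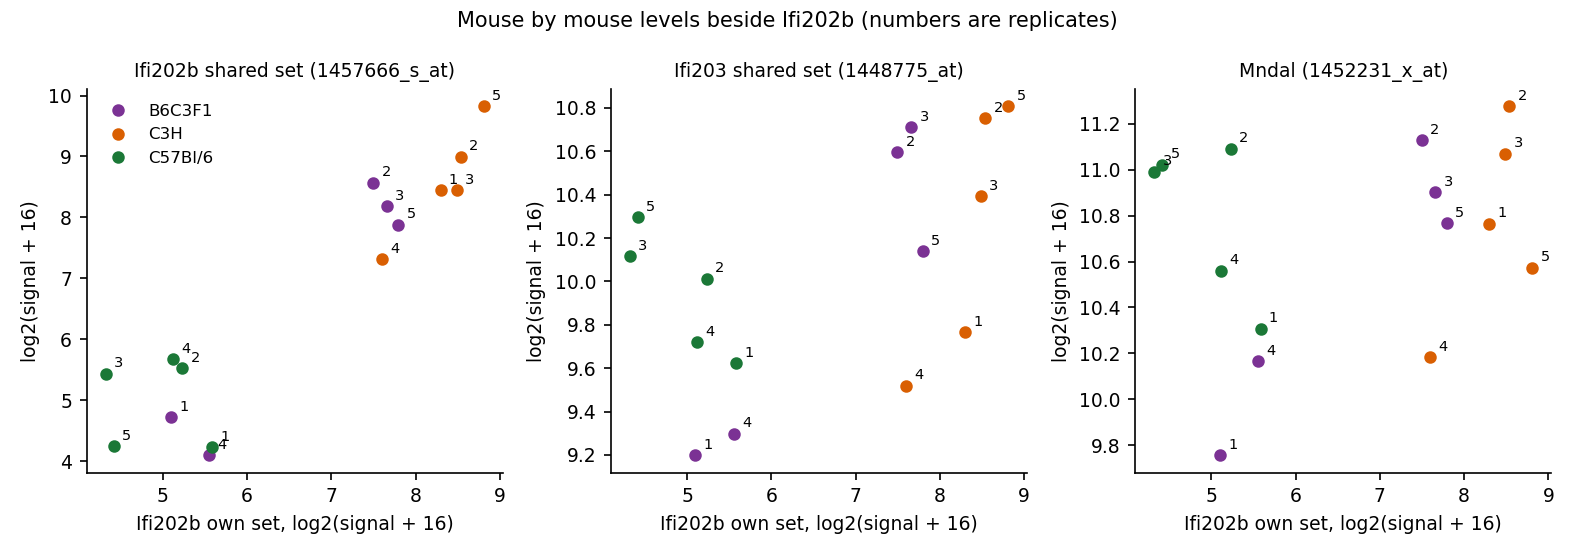
Each mouse's level on the shared Ifi202b set, the third Ifi203 set and the Mndal set used, plotted against its level on the own set of Ifi202b, all in log2(signal + 16). Points are arrays numbered by replicate and coloured by strain. B6C3F1 replicates 1 and 4 lie at the low end of all 3 panels, and the 3 other B6C3F1 mice lie near the C3H mice on the first.

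The genes most like each of the 4 over the 15 arrays are given as a description, by Pearson's r among the genes tested. The 15 points share 3 strain means, and these drive such values. Ifi202b was most like Sipa1l2 (r = 0.920), Rad50 (0.914) and Tbc1d23 (0.901), and Ifi203 was most like Msrb1 (0.880), Fzd3 (0.874) and Ndufa12 (0.853). Ifi204 was most like Actl6a (0.925), Zfp931 (0.859) and Cpsf3 (0.856), and Aim2 was most like Cntnap2 (0.883), Lman1 (0.879) and Ctnnd2 (0.853). None of these 12 genes lies on chromosome 1.

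Of the partners of Aim2 in the inflammasome, the adaptor Pycard was lower in C3H. It read 10.10, 10.32, 10.13, 10.21 and 9.66 in B6C3F1 hearts, 8.71, 9.43, 8.71, 9.22 and 9.94 in C3H hearts and 10.15, 10.63, 10.20, 10.01 and 10.28 in C57Bl/6 hearts. All C3H arrays lay below all C57Bl/6 arrays, with a difference of -1.05 ± 0.20 (limma adjusted p = 0.000697), and B6C3F1 exceeded C3H by 0.88 ± 0.20 (limma adjusted p = 0.00841). With the mean of its 3 probe sets, 2 of them dim, the adjusted p was 0.156 for C3H minus C57Bl/6 and 0.191 for B6C3F1 minus C3H, and with poly-A controls as a covariate the second was 0.0594. Casp1, the protease of the complex (-0.39, adjusted p = 0.380), and its substrates Il1b (-0.28, adjusted p = 0.620) and Il18 (0.20, adjusted p = 0.618) did not pass between the parents. Il18r1, a chain of the interleukin-18 receptor, rose in C3H by 1.32 ± 0.40 (limma adjusted p = 0.0295), a call lost without C3H replicate 1, 2 or 3 or C57Bl/6 replicate 1 or 4 (adjusted p = 0.0518 to 0.0856) and with the Gapdh ratio as a covariate (0.134). These were the 2 of 20 inflammasome genes that passed between the parents (10.0%, beside 15.7% of all genes tested).

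Among 24 other genes of cytosolic DNA and nucleic acid sensing, 2 rose and 1 fell in C3H (12.5%, beside 15.7% of all genes tested). Rad50, a DNA repair protein that also binds cytosolic DNA, rose by 1.07 ± 0.14 (limma adjusted p = 1.12e-05), with all C3H arrays above all C57Bl/6 arrays. Its dim second probe set read -0.38, and with the mean of both the adjusted p was 0.295. Mavs, the adaptor of RNA sensors, rose by 0.64 ± 0.14 (limma adjusted p = 0.00368). Lrrfip1, a nucleic acid binding protein, fell by 0.53 ± 0.12 (limma adjusted p = 0.00311), although its other probe sets read 0.10 and 0.44, and the adjusted p was 0.995 with the mean of all 3. The DNA sensor Cgas (-0.11, adjusted p = 0.863), its adaptor Sting1 (-0.14, adjusted p = 0.682) and the kinase Tbk1 (0.16, adjusted p = 0.529) did not pass.

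The interferon pathway that induces the family held 1 higher and 2 lower genes of 19 in C3H (15.8%, beside 15.7% of all genes tested). Stat3 rose by 0.58 ± 0.09 (limma adjusted p = 0.000143), a call lost with the mean of its 4 probe sets (adjusted p = 0.166). The interferon-gamma receptor chain Ifngr1 fell by 0.53 ± 0.15 (limma adjusted p = 0.0177), and the transcription factor Irf1 fell by 0.37 ± 0.12 (limma adjusted p = 0.0317). The Ifngr1 call was lost under median centring (adjusted p = 0.120), without C3H replicate 4 (0.0571) or C57Bl/6 replicate 5 (0.0558), and with poly-A controls as a covariate (0.151). That of Irf1 was lost under median centring (0.200), with the poly-A covariate (0.0873), and without any 1 of C3H replicates 2 to 5 or C57Bl/6 replicates 4 and 5 (0.0520 to 0.0915). Ifnar1, Stat2, Irf9, Irf3 and Irf7 did not pass (adjusted p = 0.450, 0.128, 0.877, 0.543 and 0.729).

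Of 44 other interferon-induced genes, 3 rose and 11 fell in C3H. That is 31.8%, beside 15.7% of all genes tested, and the median difference was -0.27, against -0.02 over all genes tested. The largest falls were those of the chemokine Cxcl9 (-2.73), the tetherin gene Bst2 (-1.56), Trim30a (-1.30) and the antiviral enzyme gene Rsad2 (-1.29). Their limma adjusted p-values were 8.81e-06, 0.0196, 7.51e-05 and 0.000562, and that of Bst2 became 0.139 with poly-A controls as a covariate, 0.0630 without C3H replicate 4 and 0.0524 without C3H replicate 5. Ifi202b had a C3H level above that of C57Bl/6, where most interferon-induced genes that passed had a lower one. Since Ifi202b was chosen with its strain levels known, nothing further is read from its direction. The second probe sets of Cxcl9 and Trim30a read -0.86 and -0.26, and with the mean of both sets the differences were -1.80 (limma adjusted p = 0.000124) and -0.78 (0.00226). The count of passing genes fell to 9 with the poly-A covariate.

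Together the 5 lists (inflammasome, DNA sensing, interferon signalling, interferon response and leukocyte markers) held 129 tested genes, of which 8 rose and 16 fell between C3H and C57Bl/6. That is 18.6%, beside 15.7% of all genes tested. B6C3F1 minus C57Bl/6 had 2 of 129 (1.55%, beside 3.83%), and B6C3F1 minus C3H had 8 of 129 (6.2%, beside 6.2%). No difference between the lists and all genes was tested. These contrasts share arrays and are not independent.

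**Figure D5:**
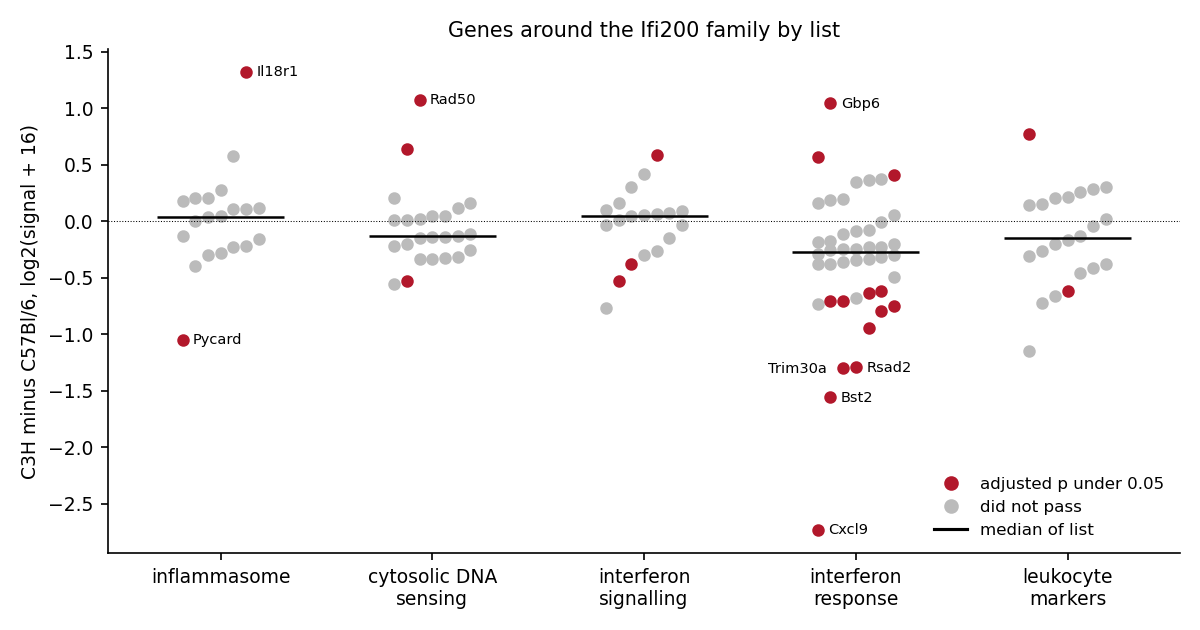
C3H minus C57Bl/6 difference in log2(signal + 16) for each tested gene of 5 lists around the family. Each point is 1 gene, red where its limma adjusted p is under 0.05, and bars are list medians. Cxcl9 lies lowest at -2.73, Pycard is the single inflammasome gene that fell, and Il18r1 and Rad50 are among the highest.

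Hsd11b1, a glucocorticoid-activating enzyme gene whose expression has been linked to Ifi202b in mouse fat, was measured for that reason. It averaged 10.20 ± 0.21 in B6C3F1, 10.61 ± 0.41 in C3H and 10.26 ± 0.19 in C57Bl/6 (SD). C3H minus C57Bl/6 was 0.35 and did not pass (limma adjusted p = 0.160), and neither did B6C3F1 minus C57Bl/6 (-0.06, adjusted p = 0.880). Without C3H replicate 5, C3H minus C57Bl/6 was 0.51 and passed (adjusted p = 0.00922).

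Cell markers and array quality were read beside these levels. All 6 cardiomyocyte, 5 fibroblast and 5 endothelial marker genes were above the dim limit, as the tissue label implies. Of 26 measured leukocyte markers, 4 were dim (Cd3e, Cd3d, Cd4 and Itgam). Their summed signal ranged from 24530 to 27700 in B6C3F1, 17990 to 29190 in C3H and 18080 to 28310 in C57Bl/6, so the strains overlapped. Cd68 rose (0.77, limma adjusted p = 0.0326) and Adgre1 fell (-0.62, limma adjusted p = 0.0164) in C3H, both macrophage genes. The Cd68 call was lost without any 1 of C3H replicates 2 and 5 or C57Bl/6 replicates 1 to 4 (adjusted p = 0.0591 to 0.0991), with the Gapdh covariate (0.157) and without an intensity trend (0.0654). The Adgre1 call was lost without C3H replicate 4 or C57Bl/6 replicate 3 or 5 (adjusted p = 0.0503 to 0.0535), with the poly-A covariate (0.150) and under median centring (0.0831). Of 5 endothelial markers, 2 (Cdh5 and Cldn5) fell in C3H, and of 5 fibroblast markers, 2 rose: Dcn by 0.41 (limma adjusted p = 0.00512) and Tcf21 by 0.76 (limma adjusted p = 4.2e-05). Over all genes tested, 15.7% passed. Poly-A control RNAs averaged 8.54 ± 0.12 in B6C3F1, 9.19 ± 0.65 in C3H and 8.58 ± 0.59 in C57Bl/6 (SD), and the log2 Gapdh 3′ over 5′ ratio was 0.90 ± 0.21, 0.60 ± 0.26 and 0.85 ± 0.24 in B6C3F1, C3H and C57Bl/6. The part of cell content and of array quality in the family's strain differences was not tested. No 2 arrays held identical values.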

How the data were processed

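The authors deposited 1 log2 value per probe set and array. MAS5, per the submitters' processing notes, made the signals, with the version not given in the sources used here. That the deposited values are log2 was read from the values: the 2% trimmed mean of the linear signal was near 500.26 on each of the 15 arrays. The table holds 45096 probe sets, of which 34940 have 1 gene symbol in the annotation used, 932 have several, 9160 have none given and 64 are controls.

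Here the values were made linear, 16 was added and log2 was taken. A gene was its single-symbol probe set of highest mean (18190 genes), and those below the 40th percentile of all probe sets were not tested (13107 left). limma 3.58.1 in R 4.3.3 (lmFit, eBayes with an intensity trend) was fitted on all 15 arrays, with Benjamini-Hochberg adjustment over the genes tested, and a gene passed under 0.05. SEs of the 4 genes and of shared probe sets come from the SDs of the 2 strains compared. Two-sided adjusted p-values are limma's throughout. The procedure was tested on simulated data.

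The 4 genes and the lists around them were chosen with earlier results of these data known. Named besides every probe set of the 4 and the other family genes were up to 4 passing genes per list by size, the fixed genes Pycard, Casp1, Il1b, Il18, Cgas, Sting1, Tbk1, Irf3, Irf7, Ifnar1, Stat2, Irf9 and Hsd11b1 (another is not reported here), the 5 nearest measured genes on each side and the 3 most alike. Cdh5, Cldn5, Dcn, Tcf21, Ifit3 and the dim markers were named after their values were seen. Gene names and order are those of RefSeq's GRCm38.p6 table. The number of arrays limits the precision. Labelled sample numbers run in 1 block per strain, so that handling order and strain cannot be told apart. Whether probe letters differ between the strains was not tested.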

Additional observations from a re-analysis of the deposited data

Results flagged for a closer look

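Of 51 groups of 5 arrays looked at, over the family's 17 probe sets, 6 held 1 array far from the 4 others, by the gap to its neighbour as a share of the group's range. Chance flags about 1 group in 20. Aim2 in C57Bl/6 hearts had replicate 5 at 4.52, with the others at 5.85 to 6.12 (gap 0.836 of the range), so the C57Bl/6 mean of Aim2 rests partly on that mouse. Its array also had the dimmest poly-A control RNAs of the 15 arrays (mean log2 7.58) and the lowest log2 Gapdh 3′ over 5′ ratio of its strain (0.46). The part of array quality in that value was not tested. For probe sets that list Ifi203, C3H replicate 3 read 4.94 on the fourth set, with the others at 6.08 to 6.42 (0.770), and C3H replicate 4 read 9.06 on the second set, with 2 LOC entries, with the others at 9.59 to 9.76 (0.753). C3H replicate 4 still lay above all C57Bl/6 arrays on that probe set. The dim second probe set of Ifi213 had C3H replicate 5 at 5.82, with the others at 4.32 to 4.44 (0.918). Ifi207 had C3H replicate 4 at 4.48, with the others at 6.15 to 6.83 (0.71). The probe set shared by Ifi211 and Ifi205 had C57Bl/6 replicate 1 at 10.16, with the others at 10.83 to 10.96 (0.841). The split of the B6C3F1 mice on Ifi202b is not among these, since 2 arrays stood low together.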

How the results depend on the processing

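The C3H minus C57Bl/6 difference of Ifi202b kept its sign in every alternative that could be run, at 4.51 with a pseudocount of 1, 2.24 with 64 and 3.26 to 3.60 without 1 array. Ifi202b has no value once probe sets ending in _x_at or _s_at are left out. B6C3F1 minus C57Bl/6 was 1.52 to 2.19 and B6C3F1 minus C3H -1.89 to -1.22 without 1 array. For Ifi203, C3H minus C57Bl/6 was -0.64 with a pseudocount of 64. When probe sets with several symbols counted too, the brightest set changed, so that for Ifi203 C3H minus C57Bl/6 became 0.29, B6C3F1 minus C3H -0.26 and the distance from the midparent -0.11, and for Ifi204 C3H minus C57Bl/6 became -0.15 and B6C3F1 minus C57Bl/6 -0.17. With the mean of all probe sets the signs turned for Lrrfip1 (0.0036), Psmb8 (0.0704) and Trim21 (0.0087) in C3H minus C57Bl/6 and for Rad50 (0.0083) in B6C3F1 minus C3H. Of the 5 lists, the 2 genes that passed in B6C3F1 minus C57Bl/6 became 1 without a dim filter, with median centring, with the mean of all probe sets or without an intensity trend, 4 with a dim filter at the 60th percentile or the Gapdh covariate, 6 with only the 2 strains, 8 with array weights, and 0 to 4 without 1 array. It was 0 without B6C3F1 replicate 1 or 3 or C57Bl/6 replicate 3, and 4 without C3H replicate 1 or 4. The 8 in B6C3F1 minus C3H became 3 with the poly-A covariate, 4 without an intensity trend, and 3 to 13 without 1 array, with 3 without B6C3F1 replicate 4 and 13 without C3H replicate 5. The cause was not tested. With the replicate number as a block the first count was 4 and Hsd11b1 passed in C3H minus C57Bl/6 (adjusted p = 0.0474), but the numbers do not pair the mice: the deviations of 15 same-numbered pairs correlated at -0.061 to 0.129, with 2 over 0.1. Quantile normalization and robust eBayes moved none of these counts by over 1.5 times. Arrays give no depth, and dim probe sets such as that of Aim2 limit what can be seen.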
